A study of Homo sapiens with 24 samples.

Results

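The transforming growth factor β (TGFβ) and bone morphogenetic protein (BMP) pathways were followed through the chromatin of 46 of their genes, out of 20136 protein-coding genes in the annotation. The genes were taken by role from a list of pathway components. They are 3 TGFβ ligands, 7 activin, inhibin and NODAL-type ligands, 5 BMP and GDF ligands, 7 type I receptors, 4 type II receptors, 2 co-receptors, 7 SMADs, 4 latent TGFβ binding proteins, 3 ligand traps and 4 SMAD ubiquitin ligases or corepressors. For each gene, windows of 5 kb to each side of every annotated transcription start site (TSS) were merged, and the base pairs (bp) covered by peaks of a histone mark were summed in each peak list. H3K27ac peaks in the gene body, outside these windows, were summed in the same way.

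The study profiled H3K4me3, H3K27ac and H3K27me3 by ChIP-seq in PANC-1, an established human cell line of pancreatic ductal adenocarcinoma. All cells were transfected with siRNA. The 3 groups were a control siRNA (siControl, the untreated controls), the control siRNA with TGFβ at 10 ng/ml for 48 hours (siControl+TGFβ), and an siRNA against PHF13 with the same TGFβ treatment (siPHF13+TGFβ, called depletion). PHF13 is a PHD finger protein that binds methylated H3K4, and the comparison of both TGFβ groups asks what its depletion does to the marks. Each group held 2 libraries per mark, so 18 peak lists were available, 1 per library. The labels do not say that the 2 libraries came from separate cultures, and p-values then measure only the spread between these libraries. The findings apply to a single cell line and to an siRNA knockdown.

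TGFβ and activins signal through a type II and a type I receptor kinase to SMAD2 and SMAD3, whereas BMPs signal to SMAD1, SMAD5 and SMAD9, and SMAD4 joins both kinds of complex. Latent TGFβ binding proteins hold secreted TGFβ in the matrix until it is released, and traps such as follistatin and noggin bind ligands outside the cell. In pancreatic ductal cancer cells the pathway is known for driving epithelial to mesenchymal transition. H3K4me3 marks promoters that are active or poised, H3K27ac marks active promoters and enhancers, and H3K27me3 is laid down by Polycomb repressive complex 2 at silenced genes. A promoter with both H3K4me3 and H3K27me3 is usually called poised.

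Several properties of the lists bear on every comparison. Peak names in the 6 lists of siPHF13+TGFβ carry the abbreviation NCT, which the study uses for the control siRNA with TGFβ. Those of siControl+TGFβ carry 3AT. Groups were taken from the labels here, and each direction holds only if those labels are right. If the labels of both TGFβ groups were exchanged, the depletion differences would change sign, and the number of the 46 genes higher with TGFβ in both libraries would become 1 for H3K4me3 and 0 for H3K27ac. The lists also differed in length, between 27869 and 39202 peaks for H3K4me3, 6004 and 36104 for H3K27ac and 59573 and 165717 for H3K27me3. Replicate 1 of siPHF13+TGFβ had the shortest list for each mark, and its H3K27ac peaks covered 1.89 Mb against 28.8 Mb in replicate 2. Read counts are not among the columns, which leaves the sequencing depth unknown, and bp covered by peaks moves with how much was called. The windows of 8 of the 46 genes also hold the start site of another coding gene, whose signal cannot be told apart. The epithelial markers KRT8, KRT18 and EPCAM had H3K4me3 and H3K27ac in all 6 lists, and KRT19 in 6 and 5 lists. Of 8 markers of other cell types, 0 had H3K4me3 in all 6 lists and 7 had no H3K27ac in their windows in any list, while the body of PTPRC had H3K27ac in 3 lists. PHF13 itself had H3K4me3 peaks in 6 lists, and peak lists do not measure its depletion.

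Most of the pathway carried an H3K4me3 promoter in PANC-1 cells. H3K4me3 was present in all 6 lists at 42 of the 46 genes, against 73.4% of all protein-coding genes. H3K27ac was present in all 6 lists at 10 genes, namely BMPR1A, TGFBR2, BMPR2, SMAD2, SMAD3, SMAD6, LTBP1, NOG, SMURF1 and SKI, and in no list at 11 genes, beside 21.8% and 34.2% of coding genes. H3K27me3 was present in all 6 lists at 12 genes and in no list at 25, beside 23.3% and 51.1%. The shares of H3K27ac and H3K27me3 in all 6 lists were thus near those of coding genes in general. By role, with few genes each and no test between roles, the counts were as follows. All 7 SMADs had H3K4me3 in all 6 lists, and 0 of 7 had H3K27me3 in all 6. SMURF1, SMURF2, SKI and TGIF1, which degrade SMADs or repress with them, all had H3K27ac in at least 5 lists and H3K27me3 in none. Among the 7 type I receptors 4 had H3K27me3 in all 6 lists, and among the 5 BMP and GDF ligands 3 did. Of the 12 genes with H3K27me3 in all 6 lists, 8 had no H3K27ac in any list. Of the 34 other genes, 3 had none. This split was not counted over all coding genes, so it is not shown to be particular to the pathway.

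**Figure D1:**
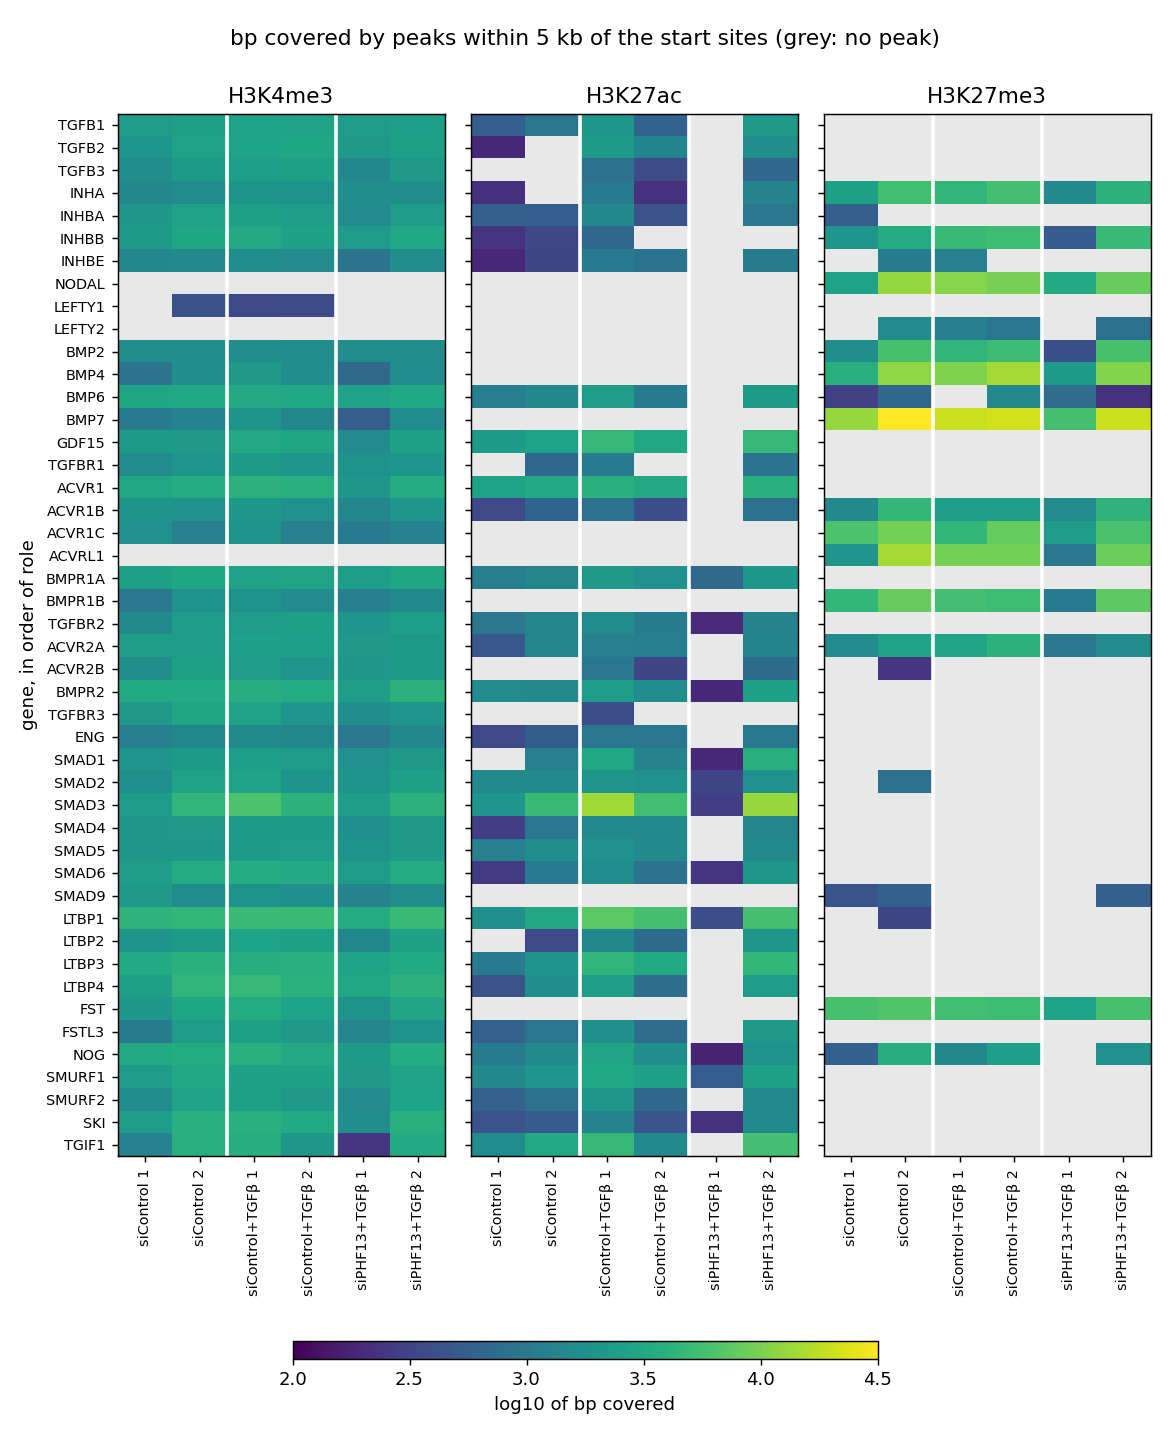
Colour shows the log10 of the bp covered by peaks within 5 kb of the start sites of each of the 46 genes (rows, in order of role) in the 6 lists of each mark (columns), and grey marks a window without a peak. H3K4me3 fills nearly all rows, H3K27me3 is limited to 21 rows, and the H3K27ac column of siPHF13+TGFβ replicate 1 is mostly empty, with peaks at 11 genes. Windows differ in width between genes, so colours compare lists within a row.

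H3K4me3 and H3K27me3 were both present in all 6 lists at 10 of the genes, beside 15.0% of all coding genes. They were INHA, INHBB, BMP2, BMP4, BMP7, ACVR1B, ACVR1C, BMPR1B, ACVR2A and FST. Of these, 6 had no H3K27ac within 5 kb of a start site in any list, beside 7.28% of coding genes, namely BMP2, BMP4, BMP7, ACVR1C, BMPR1B and FST. BMP4, a ligand of the BMP receptors, lies at chr14:54416454-54425479 on the minus strand (hg19). Its windows held 920 and 1695 bp of H3K4me3 in siControl, 2231 and 1688 bp under TGFβ, and 729 and 1661 bp after depletion. H3K27me3 covered 3799 and 11789, 10385 and 14439, and 2320 and 10960 bp in the same order. The lists of low coverage were replicate 1 of siControl and replicate 1 of siPHF13+TGFβ for both marks. BMP7, another BMP ligand, had the widest H3K27me3 of the set, in a window of 51023 bp. It covered 13059 and 33503 bp in untreated controls, 20058 and 21108 bp under TGFβ, and 5788 and 20170 bp after depletion. FST encodes follistatin, which traps activins. Its H3K4me3 covered 2155 and 2961, 3473 and 2837, and 1912 and 2874 bp. The groups overlapped.

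The other members of this class showed the same 2 marks at several steps of the cascade. BMP2, a BMP ligand, had between 1628 and 1722 bp of H3K4me3 over all 6 lists, a narrow range, and H3K27me3 of 1748 and 5963, 4334 and 5191, and 405 and 5984 bp in the group order above. ACVR1C, the type I receptor ALK7, had H3K4me3 of 1843 and 1234, 1959 and 1216, and 1082 and 1284 bp and H3K27me3 of 6128 and 9451, 4536 and 8173, and 2332 and 6045 bp. BMPR1B, a type I receptor for BMPs, had H3K4me3 of 1005 and 1913, 1883 and 1615, and 1197 and 1568 bp and H3K27me3 of 4473 and 8346, 5612 and 5316, and 1038 and 7422 bp. Replicate 1 after depletion had the least H3K27me3 at all 3 genes. H3K4me3 at BMP7 was 1090 and 1289, 1871 and 1414, and 576 and 1642 bp. INHA, INHBB, ACVR1B and ACVR2A carried H3K27ac as well in some lists. INHA encodes the inhibin α chain and had H3K27ac of 223 and 0 bp in untreated controls, 1049 and 225 bp under TGFβ, and 0 and 1318 bp after depletion. INHBB encodes an activin β chain and had 239 and 348, 692 and 0, and 0 and 0 bp. For ACVR1B, the type I activin receptor ALK4, the values were 357 and 643, 874 and 398, and 0 and 840 bp. ACVR2A, a type II activin receptor, had 480 and 1361, 1221 and 1193, and 0 and 1338 bp. All 4 genes were without H3K27ac in replicate 1 of siPHF13+TGFβ. Their H3K4me3 was present throughout, with 1443 and 1599, 1968 and 1879, and 1713 and 1702 bp at INHA and 2282 and 2964, 3237 and 2701, and 2359 and 3052 bp at INHBB. ACVR1B had 1969 and 1822, 2155 and 1828, and 1402 and 2054 bp. ACVR2A had 2540 and 2427, 2580 and 2589, and 2258 and 2295 bp, a range narrower than that of its H3K27ac. H3K27me3 at ACVR1B was 1491 and 4546, 2473 and 2491, and 1605 and 4266 bp, with overlapping groups.

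There were 4 genes without H3K4me3 in all 6 lists. NODAL and LEFTY2, ligands of early embryonic patterning, and ACVRL1, an endothelial type I receptor, had none in any list. NODAL lies at chr10:72191692-72207707 on the minus strand (hg19), and its windows held H3K27me3 of 2817 and 12760 bp in untreated controls, 11023 and 9735 bp under TGFβ, and 3352 and 8233 bp after depletion. ACVRL1 held 2022 and 14572, 9520 and 9582, and 988 and 8693 bp. Both siControl libraries of these genes were far apart. LEFTY2 had smaller H3K27me3 coverage, 0 and 1622, 1182 and 949, and 0 and 813 bp. LEFTY1, an antagonist of NODAL, had H3K4me3 peaks of 0 and 416 bp in untreated controls, 356 and 369 bp under TGFβ, and 0 and 0 bp after depletion. It had neither H3K27ac nor H3K27me3 in any list.

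CpG content is known to go with Polycomb and H3K4me3 at promoters. Promoter sequences of the poised BMP4 and the H3K4me3-free NODAL are printed as examples. They come from RefSeq (GRCh38.p14), run from 250 bases before to 50 after the annotated start and are written 5′ to 3′, with CpG dinucleotides in capitals.
BMP4 promoter, chr14:53955001-53955300, minus strand: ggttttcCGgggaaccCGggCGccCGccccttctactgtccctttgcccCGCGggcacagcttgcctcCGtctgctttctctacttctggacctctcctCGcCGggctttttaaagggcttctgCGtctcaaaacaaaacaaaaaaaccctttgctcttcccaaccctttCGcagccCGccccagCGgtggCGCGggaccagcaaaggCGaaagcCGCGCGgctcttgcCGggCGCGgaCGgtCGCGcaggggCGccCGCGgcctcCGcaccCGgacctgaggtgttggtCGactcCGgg
NODAL promoter, chr10:70441632-70441931, minus strand: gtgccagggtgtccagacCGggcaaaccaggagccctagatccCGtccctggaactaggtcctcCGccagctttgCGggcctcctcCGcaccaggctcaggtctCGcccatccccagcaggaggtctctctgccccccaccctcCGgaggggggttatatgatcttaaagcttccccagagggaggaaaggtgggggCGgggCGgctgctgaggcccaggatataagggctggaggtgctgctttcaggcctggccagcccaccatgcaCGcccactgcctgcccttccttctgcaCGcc
BMP4 has 32 CpGs in these 300 bases and NODAL has 11. The table held 38 of the 46 genes, without INHBE, LEFTY1, LEFTY2, BMP2, BMP7, ACVRL1, NOG and SKI. The 8 genes with H3K4me3 and H3K27me3 in all 6 lists had 8 to 58 CpGs, with a median of 32. The 29 genes with H3K4me3 in all 6 lists and H3K27me3 in fewer had 1 to 50, with a median of 30. Over all 27305 promoters of the table the median was 14, and 28 of the 38 genes were at or above it. The 2 classes with H3K4me3 overlapped in CpG content. Each held genes with fewer CpGs than NODAL, the only gene of the 38 with H3K4me3 in fewer than 6 lists.

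Under TGFβ, H3K27ac covered more bp in both libraries at 18 of the 35 pathway genes that had a peak in any list, and fewer at 0. Over all coding genes the shares were 54.0% higher and 0.0755% lower, so the pathway was close to the background. The median difference was 0.61 on the log2 scale of bp + 100 for the pathway and 0.61 for all genes. SMAD3, the main transcription factor of TGFβ signalling (chr15:67356101-67487511, hg19), had the largest difference of the 18. Its windows held 1995 and 4833 bp in untreated controls, 13990 and 5479 bp under TGFβ, and 290 and 12928 bp after depletion. Replicate 1 under TGFβ was far above replicate 2, which stood only slightly above the higher control. LTBP1, which tethers latent TGFβ to the matrix, held 1788 and 3060, 7205 and 5744, and 400 and 5819 bp. Here both TGFβ libraries stood well above both controls. LTBP3 held 1104 and 1959, 4338 and 3302, and 0 and 4563 bp.

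TGFB2 and SMAD1 complete the 5 genes with the largest differences among the 18. TGFB2, a TGFβ ligand at chr1:218518678-218617961, had 189 and 0 bp in untreated controls, 2286 and 1340 bp under TGFβ, and 0 and 1746 bp after depletion. SMAD1, which transduces BMP signals, had 0 and 1220, 3136 and 1300, and 194 and 3774 bp. Both genes were thus near or at no peak in at least 1 control library. TGFB3 and ACVR2B had H3K27ac in both siControl+TGFβ lists and in neither siControl list. TGFB3, a TGFβ ligand, had 869 and 383 bp with TGFβ and 0 and 701 bp with depletion. The start site of IFT43 lies in its window. ACVR2B, a type II receptor, had 1013 and 336 bp with TGFβ and 0 and 768 bp with depletion.

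**Figure D2:**
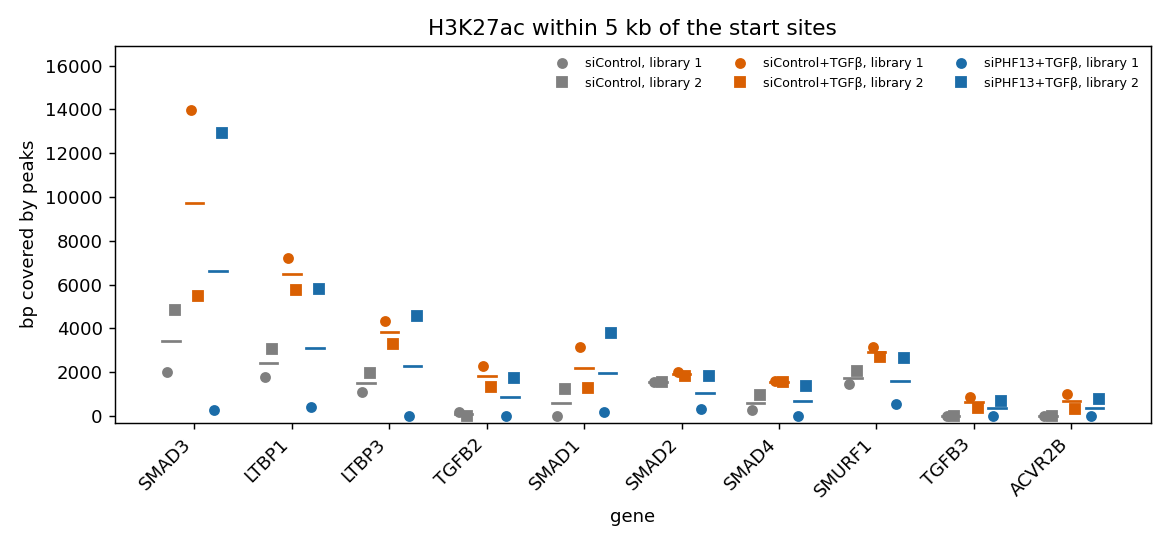
Points give the bp covered by H3K27ac peaks within 5 kb of the start sites in each library (circles, replicate 1, and squares, replicate 2) and short bars the mean of the 2 libraries of a group. The 10 genes were drawn from the 18 called higher with TGFβ, of 35 with a peak. By that choice both siControl+TGFβ points lie above both siControl points in all of them. The siPHF13+TGFβ replicate 1 lies at or near 0, between 0 and 562 bp, while replicate 2 lies near the siControl+TGFβ points or higher.

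Peak height, the fold enrichment of the highest peak, was called at 0% of genes by limma in both comparisons for H3K4me3 and H3K27ac. The test held only genes with a peak in all 6 lists, 14772 and 4380, of which 42 and 10 were in the pathway. H3K27ac height did not follow bp at every gene. At SMURF1 it was 5.61 and 6.44 in siControl, 4.72 and 4.15 under TGFβ, and 5.86 and 5.23 after depletion. GDF15 height was 5.48 and 5.34 in siControl and 4.68 and 4.35 under TGFβ. TGFB2 height rose with its bp, from 2.64 and 0 to 3.53 and 3.80. For bp covered, limma across the 12712 genes with H3K27ac in at least 2 lists called 0% of genes higher and 0% lower with TGFβ, with 96 genes higher and 0 lower at an unadjusted p under 0.05. TGFB2 had a log2 difference of 3.45 ± 1.52 (SE, n = 2 against 2, adjusted p = 0.98 in limma), and SMAD3 had 1.46 ± 1.52. With 2 libraries against 2 an exact permutation test cannot go below 0.33. The lengths of the lists moved with these values. H3K27ac peaks covered 11.02 and 17.2 Mb in siControl and 31.9 and 18.8 Mb in siControl+TGFβ. The 46 windows together took 0.252% and 0.262% of that length in untreated controls, 0.276% and 0.266% under TGFβ, and 0.188% and 0.291% after depletion. All 6 lists were also shortened by q value to the 6004 peaks of the shortest, replicate 1 of siPHF13+TGFβ. The siControl and siControl+TGFβ lists held 19413 to 36104 peaks, so most of their peaks were dropped. In these lists of equal length 5 of 19 genes with a peak were higher in both TGFβ libraries, beside 37.8% of coding genes. The 5 were SMAD4, SMAD5, LTBP1, SMURF1 and SKI, and GDF15 was lower. LTBP1 then had 0 and 0 bp in untreated controls, 3495 and 1787 bp under TGFβ and 400 and 1692 bp after depletion.

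The gene bodies were read in the same way. Of 18 genes with an H3K27ac peak in the body in any list, 12 were higher in both siControl+TGFβ libraries and 0 lower, beside 41.3% and 0.377% of coding genes. The median log2 difference was 1.34 for these genes and 0.91 for all genes. The SMAD3 body held 1563 and 3698 bp in untreated controls, 9095 and 4008 bp under TGFβ, and 0 and 8352 bp after depletion. The LTBP1 body held 1582 and 2854, 8127 and 3994, and 0 and 4876 bp. In TGFB2 the body went from 0 and 0 bp to 3514 and 1742 bp, and held 0 and 1607 bp with depletion. LTBP2, a matrix protein of the same family as LTBP1, had 220 and 762, 3277 and 1961, and 0 and 2850 bp. TGFBR2, the type II receptor for TGFβ, had 1293 and 1896, 3315 and 2723, and 300 and 3547 bp. These genes were taken from the 12 called higher, so their siControl and siControl+TGFβ libraries did not overlap. BMP6, BMP7, ENG and SMAD6 had no body peak in siControl and one in both siControl+TGFβ libraries. ENG encodes endoglin, a TGFβ co-receptor, and had 1461 and 792 bp with TGFβ. SMAD6, an inhibitor of BMP signalling, had 1177 and 315 bp, BMP6 had 541 and 333 bp and BMP7 had 192 and 208 bp.

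Bodies with the most H3K27ac over the 6 lists also included TGFB1 and SMURF1. TGFB1 held 1833 and 2778, 4223 and 2943, and 217 and 4435 bp in the same order. The start sites of TMEM91 and of an unnamed coding gene lie in its windows, which are outside the body. Only a gene's own windows were left out of its body, and start sites of other genes there were not removed. SMURF1 held 582 and 2274, 5525 and 2125, and 0 and 4975 bp, and its groups overlapped. These bodies are long, so more bp there does not mean a denser mark. Bodies of the pathway took 0.0909% and 0.107% of the H3K27ac list length in untreated controls, 0.156% and 0.136% under TGFβ, and 0.0775% and 0.147% after depletion. limma over 3174 genes called 0% higher and 0% lower, with 68 and 0 genes at an unadjusted p under 0.05. TGFB2 had 4.69 ± 1.62 (SE, adjusted p = 0.94 in limma). A peak was left in 6 bodies in lists of equal length. LTBP1 was then higher and TGFB1 and SKI lower, which is 1 and 2 of 6 genes beside 30.5% and 3.77% of coding genes. The larger share of higher bodies was not seen among these 6, with most H3K27ac peaks dropped.

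Single regions showed where the body signal lay. Overlapping peaks of the 6 H3K27ac lists were merged, giving 178 regions in the windows or bodies of the 46 genes. A region was called gained when both libraries of the first-named group had a peak and neither of the second did. With TGFβ, 22 regions were gained and 0 lost, or 12.4% of the regions, beside 6.97% and 0.0576% over all coding genes. They lay at 9 genes, with 6 at SMAD3, 5 at TGFB2, 4 at LTBP1, 2 at LTBP2 and 1 each at TGFB3, ACVR2B, TGFBR2, ENG and SMAD6. Of the 22 regions, 17 were intronic and 14 lay in a gene body outside the windows. In siPHF13+TGFβ, 0 of the 22 had a peak in replicate 1 and 18 had one in replicate 2. In lists of equal length 2 regions were gained and 4 lost.

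TGFB2 had 5 of the gained regions. Its 13 merged regions were counted by library, with 1 and 0 holding a peak in untreated controls, 11 and 6 under TGFβ and 0 and 8 after depletion. A gained region of 1325 bp at chr1:218518392-218519716 covered the start site and part of an exon, and held 1208 and 871 bp of peaks with TGFβ. Others lay in introns at 10283, 29852 and 33024 bp from the nearest start site. The TGFB2 promoter of RefSeq is shown because H3K27ac was gained over it. CpGs are in capitals, and there are 14, equal to the median of all promoters.
TGFB2 promoter, chr1:218345086-218345385, plus strand: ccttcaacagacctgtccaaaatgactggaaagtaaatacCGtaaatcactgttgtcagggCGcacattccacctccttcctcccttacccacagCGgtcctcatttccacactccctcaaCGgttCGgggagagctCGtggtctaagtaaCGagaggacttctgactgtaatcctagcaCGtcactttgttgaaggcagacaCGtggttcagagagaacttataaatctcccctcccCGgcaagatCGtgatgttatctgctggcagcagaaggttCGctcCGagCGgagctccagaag

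**Figure D3:**
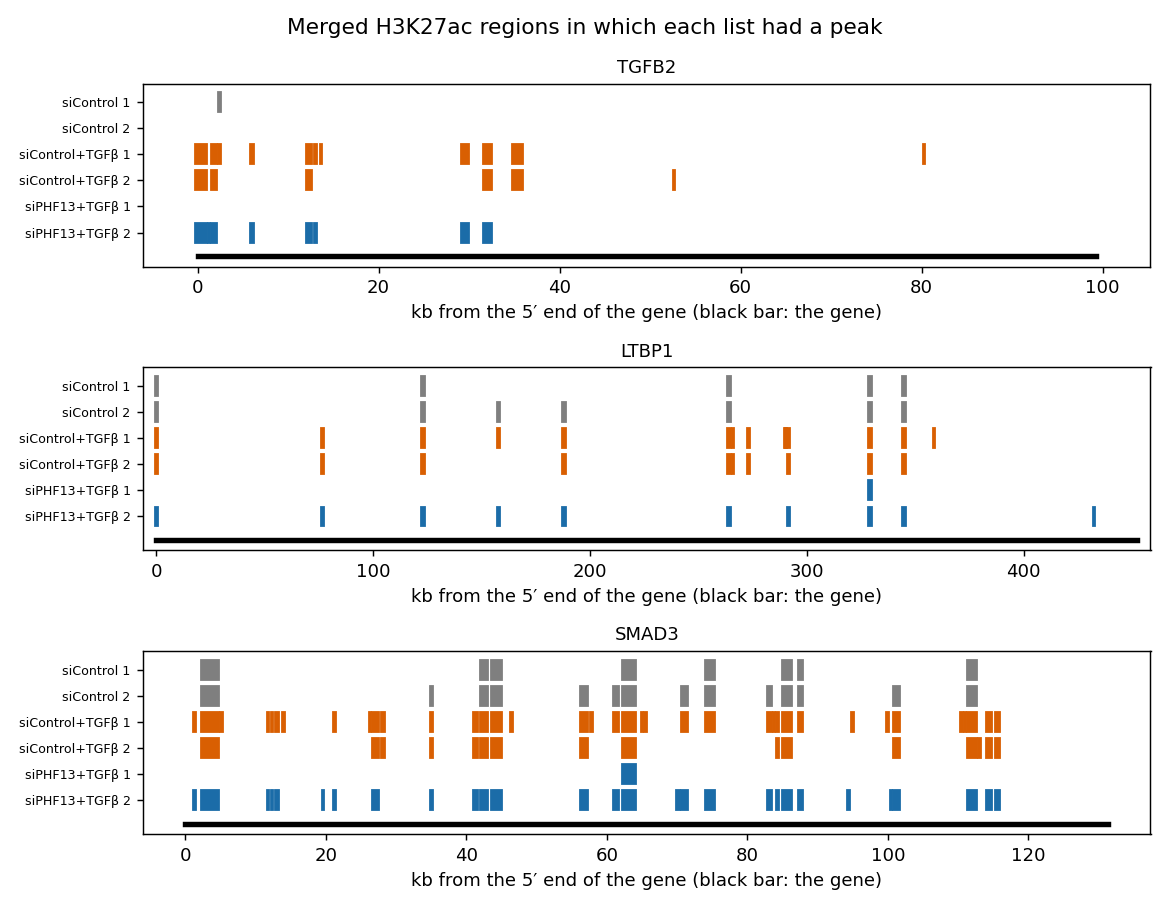
Boxes show the merged H3K27ac regions in which each of the 6 lists had a peak, placed by kb from the 5′ end of TGFB2, LTBP1 and SMAD3, with the gene as a black bar. TGFB2 has 1 box in siControl against 11 and 6 in the siControl+TGFβ lists, LTBP1 has 5 and 7 against 14 and 10, and SMAD3 has 8 and 14 against 37 and 16, while siPHF13+TGFβ replicate 1 has at most 1 box per gene.

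The widest regions gained with TGFβ were in introns of ENG and LTBP1. The 200 bases around the summit of the strongest siControl+TGFβ peak are printed for the 3 widest (GRCh37, the coordinates of hg19). Capitals mark matches to any of 5 motifs on either strand, which are CAGAC (a SMAD binding element), GTCTAGAC (its palindromic form), TGANTCA (AP-1), CACCTG (an E-box bound by ZEB and SNAIL factors) and GGCGCC (a GC-rich SMAD site). No listed motif contains another.
ENG, H3K27ac, chr9:130600538-130600737, plus strand: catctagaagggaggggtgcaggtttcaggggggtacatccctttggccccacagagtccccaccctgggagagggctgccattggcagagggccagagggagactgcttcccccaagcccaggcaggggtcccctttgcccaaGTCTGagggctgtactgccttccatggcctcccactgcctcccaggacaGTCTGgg
LTBP1, H3K27ac, chr2:33445310-33445509, plus strand: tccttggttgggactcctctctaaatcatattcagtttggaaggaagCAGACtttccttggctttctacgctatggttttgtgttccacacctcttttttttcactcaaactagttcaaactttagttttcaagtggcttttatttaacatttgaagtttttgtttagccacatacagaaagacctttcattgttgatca
LTBP1, H3K27ac, chr2:33463166-33463365, plus strand: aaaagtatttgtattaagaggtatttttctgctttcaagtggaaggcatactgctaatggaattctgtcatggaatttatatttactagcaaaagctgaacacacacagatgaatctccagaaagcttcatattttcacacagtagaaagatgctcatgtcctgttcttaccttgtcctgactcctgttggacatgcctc
The ENG region holds 2 matches to CAGAC, the first LTBP1 region 1 and the second LTBP1 region 0. CAGAC occurred in 33.1% of 36964 such H3K27ac summits, CACCTG in 14.3%, GGCGCC in 9.57%, TGANTCA in 5.43% and GTCTAGAC in 0.1001%. A match is a description of these letters and not evidence of binding. The ENG summit has a GC content of 64.5%, against 36% and 37.5% for both LTBP1 summits.

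Longer matches were rare at promoters too. The palindrome GTCTAGAC was found in 1 of 38 promoters of the pathway, that of SMAD6, and in 0.201% of all 27305 promoters. SMAD6 was chosen for printing after this match was seen, and the match is in capitals. CAGAC was in 19 of 38 promoters, beside 44.95% of all.
SMAD6 promoter, chr15:66701986-66702285, plus strand: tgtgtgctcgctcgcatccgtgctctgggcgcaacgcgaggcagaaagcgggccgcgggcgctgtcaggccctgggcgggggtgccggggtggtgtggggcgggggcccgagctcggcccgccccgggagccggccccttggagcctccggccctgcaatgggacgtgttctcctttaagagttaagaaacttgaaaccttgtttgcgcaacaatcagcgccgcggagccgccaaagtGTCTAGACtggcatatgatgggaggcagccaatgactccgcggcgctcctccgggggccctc
H3K27ac in the SMAD6 windows covered 263 and 1100 bp in untreated controls, 1641 and 877 bp under TGFβ, and 243 and 2089 bp after depletion, and the groups overlapped.

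H3K4me3 covered more bp in both TGFβ libraries at 16 of 43 pathway genes and fewer at 1, beside 46.6% and 2.01% of coding genes. The median log2 difference was 0.18 for the pathway and 0.13 for all genes. Among the 16 genes, those with the largest differences follow. SMAD3, LTBP4, BMP4, FSTL3, FST, SMAD6 and TGFBR2, whose libraries overlapped, differed by more than some of the genes that follow. GDF15, a divergent member of the TGFβ family induced by cell stress, held 2327 and 2217 bp in untreated controls, 3200 and 2949 bp under TGFβ, and 1594 and 2671 bp after depletion. LTBP1 held 4188 and 4476, 5062 and 5080, and 3476 and 4889 bp. LTBP2 held 1987 and 2297, 2827 and 2643, and 1415 and 2704 bp. In each, both TGFβ libraries were close to each other and above both controls.

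Both remaining genes of the 5 were TGFβ ligands. TGFB3 held 1719 and 2283 bp in untreated controls, 2564 and 2611 bp under TGFβ, and 1453 and 2227 bp after depletion. TGFB2 held 2040 and 2727, 2827 and 2984, and 2262 and 2665 bp. BMP2 was the 1 gene with fewer bp, at 1682 and 1722 in siControl against 1664 and 1628 in siControl+TGFβ, a difference of 56 bp in the means. limma over 15596 genes called 0.122% of genes higher and 0% lower with TGFβ (19 and 0 genes), and 0 of these were in the pathway. Its adjusted p was 0.87 for GDF15, with a log2 difference of 0.42 ± 0.25 (SE, n = 2 against 2). H3K4me3 lists covered 29.3 and 36.9 Mb in siControl and 41.1 and 37.4 Mb in siControl+TGFβ. In lists of equal length 18 genes were higher and BMP2 lower, beside 45.1% and 2.52% of coding genes.

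**Figure D4:**
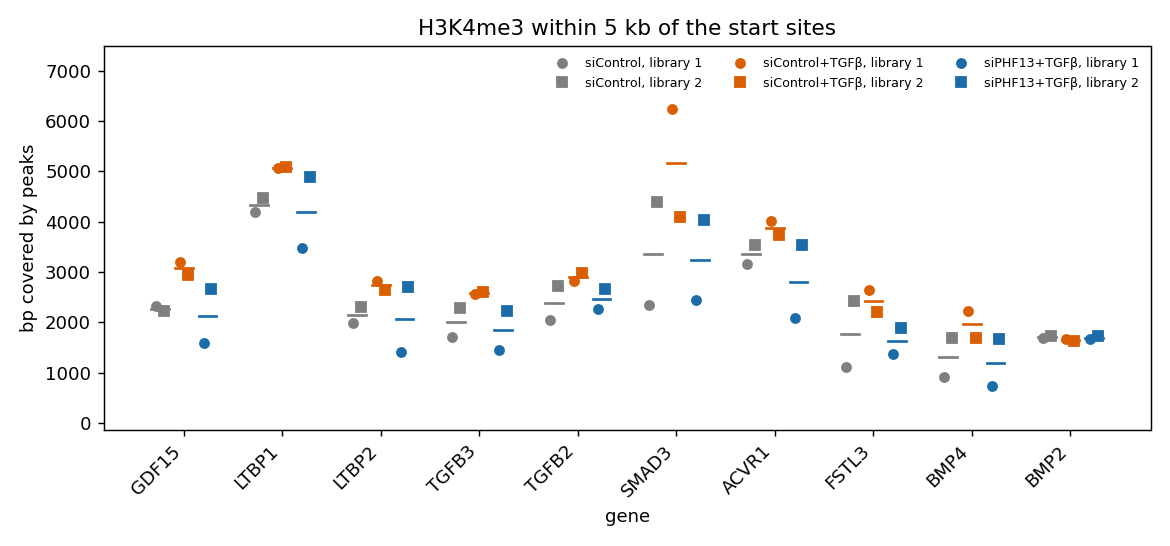
Points give the bp covered by H3K4me3 peaks within 5 kb of the start sites in each library (circles, replicate 1, and squares, replicate 2) and short bars the mean of the 2 libraries of a group. GDF15, LTBP1, LTBP2, TGFB3, TGFB2 and ACVR1 are among the 16 genes called higher with TGFβ. By that call both their siControl+TGFβ points lie above both siControl points. BMP2 stays between 1628 and 1722 bp in all 6 libraries.

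Among 151 merged H3K4me3 regions at the pathway genes, 7 were gained with TGFβ and 1 lost, beside 3.05% and 0.180% of regions at all coding genes. The lost region was at TGIF1, a SMAD corepressor, at a start site (chr18:3451741-3452244), with 246 and 502 bp in untreated controls, 0 and 0 bp under TGFβ, and 0 and 298 bp after depletion. Gained regions lay at GDF15, SMAD3, TGFB2, LTBP1 and TGFBR2, and those of LTBP1 and TGFBR2 overlapped gained H3K27ac regions in their introns.

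H3K27me3 differed between siControl and siControl+TGFβ at few genes. Of 21 pathway genes with a peak in any list, 2 were higher in both TGFβ libraries, beside 5.24% of coding genes, and 2 were lower, beside 6.27%. INHBB held 2035 and 3532 bp in untreated controls, 4937 and 5235 bp under TGFβ, and 524 and 4974 bp after depletion. ACVR2A held 1625 and 2743, 2852 and 4164, and 1013 and 1622 bp. SMAD9, a BMP-activated SMAD, had H3K27me3 in both siControl libraries and in neither TGFβ library, at 451 and 599 against 0 and 0 bp, and 0 and 584 bp with depletion. FST held 5905 and 6642, 5560 and 5294, and 2842 and 5985 bp. limma over 8589 genes called 0% in each direction, with 31 genes higher and 129 lower at an unadjusted p under 0.05. With peaks of −log10 q of at least 3, the number of pathway genes higher and lower was 0 and 0. That limit kept 1269 to 3942 peaks per H3K27me3 list, of 59573 to 165717, so most peaks were dropped. The presence of H3K27me3 given above counts all peaks, most of them below this limit.

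After PHF13 depletion under TGFβ, H3K4me3 covered fewer bp in both libraries at 19 of 43 pathway genes and more at 0. The background was 61.0% lower and 0.265% higher, so the pathway had no larger share than coding genes in general. The median log2 difference was -0.27 for the pathway and -0.23 for all genes. Of the 19 genes, SMAD3 had the largest difference, with 6236 and 4089 bp under TGFβ, 2443 and 4041 bp after depletion, and 2347 and 4384 bp in untreated controls. Replicate 2 of the depleted cells stood just below the lower TGFβ library. ACVR1, a type I receptor for BMPs and activins, held 4005 and 3739 bp under TGFβ against 2084 and 3527 bp, with the start site of UPP2 in its windows. GDF15 held 3200 and 2949 against 1594 and 2671 bp. LTBP1 held 5062 and 5080 against 3476 and 4889 bp. FSTL3, a trap for activins, held 2634 and 2197 against 1375 and 1881 bp. At these genes replicate 1 was well below and replicate 2 slightly below the TGFβ libraries.

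limma called 0.128% of genes lower with depletion and 0.00641% higher (20 and 1 of 15596 genes), and 0 of them were in the pathway. LEFTY1 had a log2 difference of -2.21 ± 0.79 (SE, n = 2 against 2, adjusted p = 0.41 in limma), and its adjusted p ranged from 0.0063 to 0.87 over 9 other settings, with 2 of them calling it. H3K4me3 lists covered 24.9 and 34.9 Mb in siPHF13+TGFβ against 41.1 and 37.4 Mb in siControl+TGFβ, and the pathway windows took 0.313% and 0.315% of that length with depletion and 0.294% and 0.289% without it. Without replicate 1 of siPHF13+TGFβ, 19 genes were lower and 6 higher, beside 62.4% and 10.3% of coding genes. In lists of equal length 14 were lower, beside 58.5% of coding genes.

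H3K4me3 regions were lost with depletion at 9 sites of the pathway and gained at 0, beside 4.60% and 0.0882% of regions at all coding genes. TGFB2 and SMAD3 had 2 each, and LEFTY1, LTBP1, TGFBR2, SMURF1 and GDF15 had 1 each. SMURF1, which ubiquitinates SMADs and receptors, had the widest of them, 968 bp in an intron at chr7:98706544-98707511, with 0 and 759 bp in untreated controls, 676 and 532 bp under TGFβ, and 0 and 0 bp after depletion. In lists of equal length the lost regions numbered 0.

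For H3K27ac the 2 depleted lists were unlike in length, and replicate 1 had peaks at 11 of the 46 genes and replicate 2 at 33. H3K27ac was lower in both libraries at 3 of 35 genes and higher at 0, beside 9.65% and 0.0226% of coding genes. The 3 genes were SMAD2, SMAD4 and SMURF1. SMAD2, a receptor-activated SMAD, held 2007 and 1833 bp under TGFβ, 334 and 1823 bp after depletion, and 1554 and 1578 bp in untreated controls. SMAD4, the common partner of all receptor-activated SMADs, held 1588 and 1559 against 0 and 1373 bp, and 288 and 949 bp in untreated controls. SMURF1 held 3161 and 2679 against 562 and 2671 bp, and 1477 and 2048 bp in untreated controls. In replicate 2 SMAD2 and SMURF1 were barely below the lower TGFβ library. Leaving out replicate 1 gave 3 genes lower and 14 higher, beside 9.65% and 29.7% of coding genes. Leaving out replicate 2 gave 32 lower and 0 higher, beside 89.2% and 0.0302%. With equal lengths the genes lower were SMAD4, LTBP1 and SMURF1, and the difference of SMAD2 turned from -841.5 to 75 bp.

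limma called 0% of 12712 genes in either direction for this comparison, with 0 higher and 9 lower at an unadjusted p under 0.05. In the bodies 1 of 18 genes, TGFB2, was lower in both depleted libraries and 0 were higher, beside 7.94% and 0.126% of coding genes. Body values for TGFB2 were 3514 and 1742 bp with TGFβ and 0 and 1607 bp with depletion. limma called 0% of the 3174 bodies, with 0 and 9 at an unadjusted p under 0.05.

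At the pathway genes 5 H3K27ac regions were lost with depletion and 0 gained, 2.81% of the 178 regions, beside 1.83% and 0.0144% over all coding genes. They lay at LTBP1 (2), TGFB2, SMAD3 and NOG. Of these, 4 were among the 22 regions gained with TGFβ. At chr2:33444553-33445965 in LTBP1 the lists held 0 and 0 bp in untreated controls, 1413 and 535 bp under TGFβ, and 0 and 0 bp after depletion, and an H3K4me3 region inside it, of 0 and 0, 151 and 461, and 0 and 0 bp, had the same pattern. At chr1:218553404-218554581 in TGFB2 the H3K27ac values were 0 and 0, 1102 and 519, and 0 and 0 bp. At chr15:67383987-67384560 in SMAD3 they were 0 and 0, 571 and 538, and 0 and 0 bp. With lists of equal length, 1 H3K27ac region was lost and 1 gained. The summit of the TGFB2 region and that of the SMURF1 H3K4me3 region are shown as the next widest lost regions after the LTBP1 region printed above, with the same 5 motifs in capitals (GRCh37).
TGFB2, H3K27ac, chr1:218553532-218553731, plus strand: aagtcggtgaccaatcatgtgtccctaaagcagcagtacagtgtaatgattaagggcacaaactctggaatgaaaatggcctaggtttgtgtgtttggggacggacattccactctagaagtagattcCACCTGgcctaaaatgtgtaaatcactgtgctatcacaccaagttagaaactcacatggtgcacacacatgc
SMURF1, H3K4me3, chr7:98707120-98707319, plus strand: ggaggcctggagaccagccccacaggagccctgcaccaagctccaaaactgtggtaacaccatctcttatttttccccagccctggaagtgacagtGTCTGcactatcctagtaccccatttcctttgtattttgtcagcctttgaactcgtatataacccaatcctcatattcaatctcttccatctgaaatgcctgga
The TGFB2 summit holds 1 match to CACCTG, and the SMURF1 summit holds 1 to CAGAC, which occurred in 34.9% of 41043 H3K4me3 summits.

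H3K27me3 was lower with depletion in both libraries at 5 of 21 genes and higher at 0, beside 26.1% and 0.976% of coding genes. The genes were INHA, NODAL, LEFTY2, ACVRL1 and ACVR2A, of which NODAL, LEFTY2 and ACVRL1 lacked H3K4me3. INHA held 4465 and 5625 bp under TGFβ, 1585 and 4006 bp after depletion, and 2657 and 5526 bp in untreated controls. The siControl values of INHA and the depleted values overlapped. NODAL, ACVRL1, LEFTY2 and ACVR2A have their values above, and in each replicate 1 was the lowest of the 4 libraries compared. limma called 0% of the 8589 genes, with 11 higher and 181 lower at an unadjusted p under 0.05. H3K27me3 lists covered 48.6 and 189 Mb in siPHF13+TGFβ and 167 and 191 Mb in siControl+TGFβ. Without replicate 1, 5 genes were lower and 5 higher, beside 26.6% and 27.5% of coding genes.

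**Figure D5:**
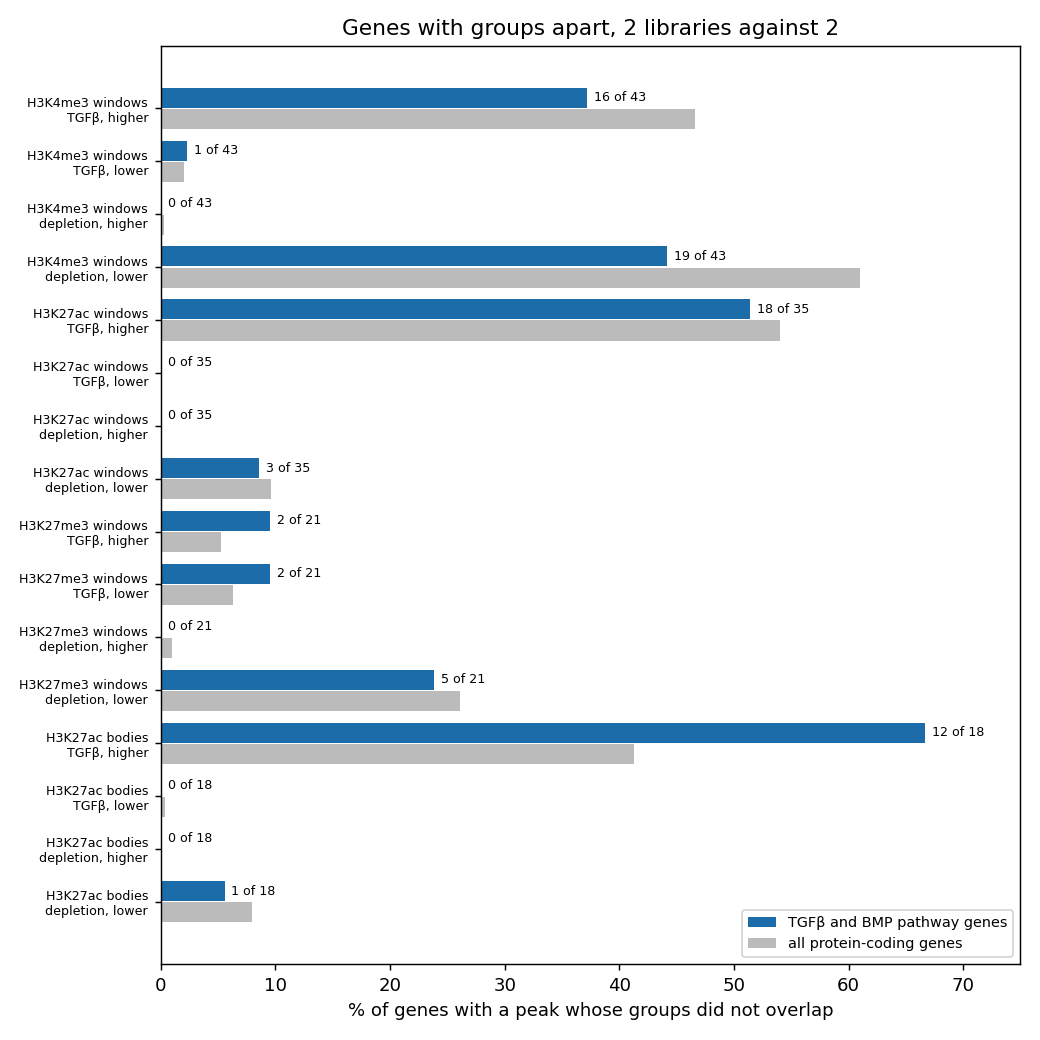
Bars give the percentage of genes with a peak in any list whose 2 libraries of the first group both lay above (higher) or below (lower) both libraries of the second, for the pathway genes (blue, with counts) and all protein-coding genes (grey). The pathway exceeds the background most in H3K27ac gene bodies with TGFβ, at 12 of 18 genes against 41.3%, which in lists of equal length becomes 1 of 6 against 30.5%, and falls below it for lower H3K4me3 with depletion, at 19 of 43 against 61.0%.

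Taking the states of a gene from both libraries of a group, H3K4me3 with H3K27ac was found at 22 of the 46 genes in untreated controls, at 28 under TGFβ and at 11 after depletion, beside 43.6%, 48.1% and 20.2% of coding genes. A mark counted only where both libraries of a group had a peak. By this rule TGFB2, TGFB3, ACVR2B, SMAD1 and LTBP2 counted as H3K4me3 alone in siControl and with H3K27ac as well under TGFβ. Of these, TGFB2, SMAD1 and LTBP2 did have H3K27ac in 1 siControl list, at 189, 1220 and 358 bp. INHBB counted as all 3 marks in siControl and as H3K4me3 with H3K27me3 under TGFβ. BMP6 counted as all 3 marks in siControl and as H3K4me3 with H3K27ac under TGFβ. Its H3K27me3 was 305 and 707 bp in siControl and 0 and 1489 bp under TGFβ, so the groups overlapped. H3K4me3 alone was found at 7, 4 and 20 genes in the 3 groups, beside 9.43%, 4.28% and 37.3%, so the pathway moved in the same order as coding genes in general. The last count rests on the short H3K27ac list of replicate 1. TGFBR1 and TGFBR3, the type I receptor of TGFβ and betaglycan, counted as H3K4me3 alone in all 3 groups, though neither lacked H3K27ac. TGFBR1 windows held H3K27ac of 0 and 701 bp in siControl, 1094 and 0 bp under TGFβ, and 0 and 886 bp after depletion. TGFBR3 windows held 397 bp in replicate 1 of siControl+TGFβ, and its body had H3K27ac in 5 lists.

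Other genes of the pathway, 42 in a list of further ligands, traps, receptors and regulators, were counted in the same way. H3K27ac was in no list at 22 of them, beside 34.2% of coding genes. H3K4me3 was in all 6 lists at 34 of them, and with H3K27me3 in all 6 lists of each at 15, beside 73.4% and 15.0%. The 15 include the BMP trap GREM1, the pseudoreceptor BAMBI and the ligand BMP3. With TGFβ, H3K4me3 was higher at 16 of 35 and lower at 1, beside 46.6% and 2.01% of coding genes. H3K27ac was higher at 11 of 20 and lower at 0, beside 54.0% and 0.0755%. In the bodies H3K27ac was higher at 3 of 9, beside 41.3%. With depletion, H3K4me3 was lower at 19 of 35 and H3K27ac at 2 of 20, beside 61.0% and 9.65%. SMAD7, an inhibitory SMAD induced by TGFβ, held H3K27ac of 513 and 1452 bp in untreated controls, 6131 and 1985 bp under TGFβ, and 0 and 6269 bp after depletion. SKIL, a corepressor of SMADs, held 1635 and 1791, 2487 and 2131, and 725 and 2514 bp. Both genes were apart between siControl and siControl+TGFβ and overlapped between the TGFβ groups.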

How the data were processed

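H3K4me3, H3K27ac and H3K27me3 were profiled by ChIP-seq in PANC-1 cells, with 2 libraries for each of the 3 groups. The authors trimmed reads with Trim Galore 0.4.1, aligned them to hg19 with Bowtie2 2.4.1, and called peaks in each library with MACS2 2.2.7.1. The deposited lists hold peak coordinates in bp, a whole-number score, a fold enrichment over background (the height), and −log10 p and −log10 q values written by MACS2. The study states a q threshold for narrow peaks that the deposited −log10 q values, which begin near 1.30, do not meet. Input libraries were not used here.

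The members and lists were chosen with earlier results of these data known. Start sites came from GENCODE v44lift37, and base pairs covered by peaks within 5 kb of them were summed in Python 3.11.15 with NumPy 2.4.6, pandas 2.3.3 and pysam 0.24.0. Figures were drawn with matplotlib 3.10.9. Genes with a peak in at least 2 lists were tested with limma 3.58.1 in R 4.3.3 on log2(bp + 100), over all 6 libraries of a mark, with Benjamini-Hochberg adjustment over all genes and a threshold of 0.05. The steps were tested on simulated data. A gene was called higher or lower between groups when both libraries of one group lay above or below both of the other. Named genes were up to 5 in each direction with the largest difference in mean bp among genes called in this way, those with a peak in both lists of one group and neither of the other, those without H3K4me3 in all 6 lists, those with H3K4me3 and H3K27me3 in all 6, and the 5 bodies with most H3K27ac. Sequences came from GRCh37 and RefSeq. The depth of the libraries is not given by the lists. Alternatives were the window, the q limit, the pseudocount, centring, the libraries in the fit, a replicate block, leaving out each library and, added after seeing the data, lists of equal length and exchanged labels of both TGFβ groups.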

Additional observations from a re-analysis of the deposited data

How the results depend on the processing

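Of the main counts, 237 alternative values stayed within 1.5 times and 99 did not. These include values with a library left out, whose counts of genes apart and of regions could not fall below the main ones. For the genes with the largest differences 223 values stayed, 40 moved and 3 turned direction, namely SMAD2 H3K27ac with depletion (75 bp in lists of equal length against -841.5), INHBB H3K27me3 with TGFβ (-86.5 bp with −log10 q of at least 3 against 2302.5) and FST H3K27me3 with TGFβ (213 bp in windows of 2.5 kb against -846.5). Among the 79 gene calls, 4 more turned, of which 3 in lists of equal length were H3K27ac with TGFβ in the windows of GDF15 (-1274 bp against 1323.5) and BMPR1A (-252.5 against 727) and the body of TGFB1 (-1282.5 against 1277.5). ACVR1 H3K4me3 with TGFβ turned at the 5′ end alone (-75 bp against 520.5). Their causes, and those of the moves that follow, were not tested. With both TGFβ labels exchanged, genes higher with TGFβ numbered 1 for H3K4me3, 0 for H3K27ac, 0 for H3K27me3 and 0 in bodies, genes lower 2 for H3K4me3 and 1 for H3K27ac, and limma calls for H3K4me3 were 0. In lists of equal length, H3K27ac windows were higher at 5 genes and lower at 1, H3K27me3 lower at 1, and bodies higher at 1 and lower at 2 with TGFβ and higher at 1 with depletion. H3K4me3 regions gained and lost were then 2 and 2 with TGFβ and 1 and 0 with depletion, and H3K27ac regions 2 and 4, and 1 and 1. With −log10 q of at least 3, H3K27me3 was higher at 0 and lower at 0 genes with TGFβ and lower at 0 with depletion, and 2 H3K4me3 regions were lost. This limit dropped most H3K27me3 peaks. With windows of 2.5 kb, or the 5′ end alone, H3K27me3 was lower at 1 gene with TGFβ.

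For H3K4me3 limma calls over all genes (19 with TGFβ, 21 with depletion), centring gave 8 and 10, a pseudocount of 10 bp 48 and 55, one of 1000 bp 0 and 0, lists of equal length 4 and 4, and the 4 libraries alone 4 with TGFβ. Centred heights gave 3 and 2. For H3K4me3 the difference of replicate 1 and replicate 2 was correlated between groups across genes, with values from -0.41 to 0.51. This difference also moves with the lengths of the lists, so it cannot show whether the replicate numbers pair the libraries. The replicate block gave 0 and 0 calls.

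Leaving out each library in turn gave ranges, with the lone library of a group assumed to vary like the others. A lone library makes the rule for groups apart, and that for regions, easier to meet. These counts could therefore not fall below the main ones, and their ranges do not test stability. The largest shares over all coding genes were 75.4% higher with TGFβ and 93.3% lower with depletion for H3K4me3. They were 96.3% and 89.2% for H3K27ac windows, and 85.0% and 61.8% for bodies. For H3K4me3, genes higher with TGFβ ranged from 17 to 37 and lower from 1 to 12, and with depletion from 0 to 6 and from 19 to 41. Calls ranged from 0 to 4 and from 0 to 29. Regions gained and lost ranged from 7 to 30 and 1 to 8, and with depletion from 0 to 7 and 10 to 35. For H3K27ac windows the ranges were 18 to 34 and 0 to 4, and with depletion 0 to 14 and 3 to 32, with 0 to 10056 calls. For bodies they were 12 to 17 and 0 to 2, and 0 to 7 and 1 to 15, with 0 to 1572 calls. H3K27ac regions ranged from 24 to 67 gained and 0 to 6 lost, and 0 to 18 and 5 to 73. For H3K27me3 they were 2 to 12 and 2 to 14, and 0 to 5 and 5 to 14. The 10056 and 1572 calls came without replicate 2 of siPHF13+TGFβ, and the most genes higher with depletion came without its replicate 1. Without replicate 2 of siControl+TGFβ, H3K27ac regions gained were 67. Without replicate 2 of siControl, H3K4me3 was higher at 37 of 43 genes, beside 75.4% of coding genes. Read depth cannot be had from the lists, so a window without a peak is not shown to lack the mark.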

Other observations

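The widest H3K4me3 peak of BMP6, a BMP ligand, spanned 2999 and 3071 bp in untreated controls, 3202 and 3100 bp under TGFβ, and 2727 and 3107 bp after depletion. It reached 3000 bp in 4 of 6 lists, more than at the other 45 genes, of which SMAD6 did so in 3 and INHBB and SKI in 2 each. The median of the widest peak over the 46 genes was 1248 and 1931 bp in untreated controls, 1949 and 1621.5 bp under TGFβ, and 1149 and 1994.5 bp after depletion, and the groups overlapped.

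Among genes outside the list, BAMBI, a pseudoreceptor that dampens TGFβ signals, held H3K27me3 of 2143 and 5232, 7179 and 7002, and 540 and 5326 bp in the same order. Both TGFβ libraries were above both controls and both depleted libraries. PMEPA1, which limits SMAD activation, held H3K27ac of 559 and 1681, 3112 and 1563, and 0 and 2937 bp, and its groups overlapped.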
